A study of Homo sapiens with 42 samples.

Results

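The comparison described here sets 786-O cells that express Halo-tagged HIF-2α against the same cells expressing Halo-tagged HIF-1α. It rests on 6 poly-A RNA-seq libraries of the second sequencing batch, 3 of each line, out of 15 libraries in that batch and 42 in the whole series. They were chosen by their labels, and no measured value was used to choose them. 786-O is an established line of clear cell renal cell carcinoma (ccRCC) with an inactivating mutation of VHL. Its own HIF-2α is therefore stabilized, and it makes no functional HIF-1α. Both lines therefore carry endogenous HIF-2α, and each carries in addition 1 transgene driven by the L30 promoter and integrated with PiggyBac, which encodes either HIF-1α or HIF-2α fused at its N-terminus to V5 and HaloTag. They are puromycin-selected pools rather than clones. Cells without a transgene (WT, 3 libraries) were sequenced in the same batch. So were lines with domain-swapped proteins, HIF-1α/2α and HIF-2α/1α, 3 libraries each. The labels count biological replicates, but nothing says that the lines were made more than once, so p-values measure the spread between libraries of 1 pool each.

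HIF is a dimer of an oxygen-regulated α subunit and the constitutive partner HIF-1β, the product of ARNT. In oxygen, prolyl hydroxylases (EGLN1, EGLN3) mark the α subunits, and VHL then targets them for degradation. HIF-1α and HIF-2α bind the same short DNA element through much alike N-terminal domains and differ most in their long C-terminal disordered regions (IDRs). HIF-1α is best known for glycolytic and mitochondrial targets, and HIF-2α for EPO and for the growth of VHL-deficient ccRCC. Neither isoform replaces the other here. The comparison asks which genes differ when either HIF-1α or further HIF-2α is added to cells that already hold HIF-2α.

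Each library held 78087880 to 93760794 reads counted on genes, and normalized read counts are these counts scaled to a common library size within a batch. In a principal component analysis of the 15 libraries the 6 libraries fell by line and no library stood apart, with 61.2% of the variance on the first component. All log2 differences below are HIF-2α minus HIF-1α unless another pair is named. The error given with ± is a standard error worked back from the log2 difference and its test statistic, and it is approximate. A gene was called when its adjusted p was 0.01 or less and it differed 2-fold or more, in edgeR's quasi-likelihood test, and the words rose and fell are kept for called genes.

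The targeted genes followed the labels. HIF1A, on chromosome 14 (61695513 to 61748259, hg38), had normalized read counts of 13714, 13008 and 12761 in the HIF-1α libraries and of 840, 866 and 1101 in the HIF-2α libraries, a log2 difference of -3.82 ± 0.08. Its mean in WT cells was 293.1, so HIF-1α cells lay above both others. HIF-2α cells, which carry no HIF1A transgene, lay 3.18-fold above WT, and the cause was not tested. EPAS1, the HIF-2α gene, gave 17435, 16476 and 15169 in HIF-1α cells and 42909, 42384 and 42330 in HIF-2α cells, a difference of 1.38 ± 0.06 (adjusted p = 4.34e-24, edgeR). WT cells held 11955, 12370 and 13537 EPAS1 counts, which are all endogenous. Reads of a transgene are counted on the gene it encodes, and the endogenous and introduced transcripts cannot be told apart in these counts. ARNT was at 3707, 3536 and 3286 with HIF-1α and at 3913, 3852 and 3941 with HIF-2α. Its difference of 0.15 ± 0.07 was not called (adjusted p = 0.0872, edgeR).

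Of 28724 genes tested, 471 (1.64%) rose and 614 (2.14%) fell with HIF-2α relative to HIF-1α. The higher genes included 355 protein-coding genes and 94 long non-coding RNAs, and the lower genes 495 and 92. In 180 higher and 219 lower genes the difference reached 4-fold, and in 65 and 33 it reached 16-fold. The 6 libraries did not overlap between lines in 467 of the 471 higher and 612 of the 614 lower genes. These genes were called on the same 6 libraries, so the lack of overlap is no separate evidence. Its share over all tested genes was not counted. The median log2 difference of all tested genes was 0, and at any fold size 2269 genes were higher and 2797 lower at the adjusted p of 0.01.

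**Figure D1:**
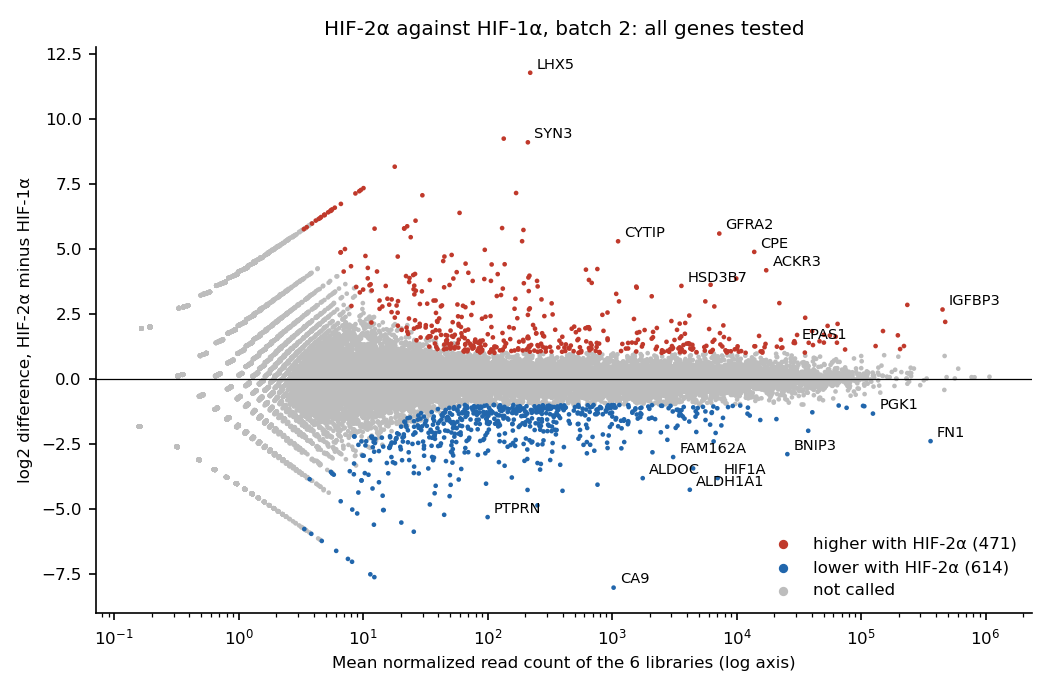
Each point is 1 of the 28724 genes tested. The x axis is the mean normalized read count of the 6 libraries on a log axis, and the y axis is the log2 difference of HIF-2α minus HIF-1α. The 471 red genes rose and the 614 blue genes fell with HIF-2α, and CA9 is the lowest labelled point at -8.03.

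The WT libraries place both lines against cells without a transgene, with the caution that the 2 comparisons with WT share these libraries with each other and with the comparison above. Against WT, 1121 genes (3.9%) rose and 139 (0.484%) fell in HIF-1α cells. In HIF-2α cells 1566 genes (5.45%) rose and 611 (2.13%) fell. Among the 346 higher genes with a mean count of at least 50, the median log2 difference from WT was 0.48 in HIF-1α cells and 2.10 in HIF-2α cells. Among the 447 lower genes with such a mean it was 0.60 in HIF-1α cells and -0.86 in HIF-2α cells. The genes that fell thus held both genes that lay above WT with HIF-1α and genes that lay below WT with HIF-2α. BNIP3, FAM162A and ALDOC are of the first kind and VCAM1, KCNJ16 and FN1 of the second, and their values follow.

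CA9 showed the largest fall among the genes named here. It encodes carbonic anhydrase 9, a membrane enzyme that handles acid outside the cell and a classical marker of hypoxia and ccRCC. CA9 was at 0 in the 3 WT libraries, at 2095, 2112 and 1938 in HIF-1α cells and at 9.91, 5.77 and 7.04 in HIF-2α cells. The 262-fold difference (-8.03 ± 0.19, adjusted p = 8.54e-32) far exceeded the spread in either line. PTPRN encodes a protein of the membrane of secretory granules. Its counts were 229.5, 210.1 and 146 with HIF-1α and 4.96, 3.46 and 5.87 with HIF-2α, 39.9-fold apart. SPRY1, an inhibitor of receptor tyrosine kinase signaling, read 390.6, 401.7 and 401.9 with HIF-1α and 23.8, 21.9 and 15.3 with HIF-2α. WT cells held 2.89 to 6.01 SPRY1 counts, so both lines lay above WT. NKX2-5, a homeobox transcription factor of the heart, had 107.1, 92.9 and 128.9 counts with HIF-1α and 4.96, 10.4 and 7.04 with HIF-2α.

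In another group of lower genes the HIF-2α cells departed further from WT than the HIF-1α cells did. ALDH1A1 makes retinoic acid from retinaldehyde. It read 4874, 5201 and 6989 in WT, 8304, 7970 and 7730 with HIF-1α and 369.8, 399.5 and 481.2 with HIF-2α, a difference of -4.27 ± 0.11. KCNJ16, an inward rectifier potassium channel subunit of kidney tubules, gave 1553, 1474 and 1295 with HIF-1α and 76.3, 99.3 and 82.2 with HIF-2α, and WT lay between 1124 and 1373. AOAH, an enzyme that inactivates bacterial lipopolysaccharide, was at 204.5, 201.4 and 143.1 against 5.95, 19.6 and 8.22. The remaining protein-coding genes of the 12 largest falls were CLDN2 (19.8-fold), RTL9 (16.9-fold), UGT2B4 (13.9-fold), ALDOC (14.1-fold) and HIF1A itself (14.1-fold).

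At the other end, several genes were almost silent with HIF-1α. LHX5, a LIM homeobox transcription factor of the developing brain, had no read in the 3 HIF-1α libraries and 444.1, 427.2 and 447.2 normalized counts with HIF-2α, at least 458-fold higher when 3 counts over the group are taken as the floor. SYN3 encodes a synapsin, a protein of synaptic vesicles. It gave 0.96, 0.97 and 0 counts with HIF-1α and 431.3, 409.9 and 420.2 with HIF-2α, a ratio of 658 with an exact 95% interval from 181.7 to 5437 for counting error. CASP14, a caspase of the epidermis, had 1 read in all 3 HIF-1α libraries and 311.3, 179 and 316.9 counts with HIF-2α, a ratio of 847 (151.5 to 33490). TIMP3, an inhibitor of matrix metalloproteases, lies within the SYN3 locus on the other strand of chromosome 22, and it rose from 6.75, 6.78 and 3.79 to 172.5, 203.2 and 176.1. Strand was ignored when reads were counted, and reads over exons of both genes were assigned to neither.

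Other genes rose from a measurable level. CPE encodes carboxypeptidase E, which trims peptide hormones. Its counts were 1023, 935.1 and 762.2 with HIF-1α and 27373, 28968 and 24107 with HIF-2α, a 29.6-fold difference (4.89 ± 0.09). GFRA2, a receptor for neurturin of the GDNF family, went from 324.1, 307.8 and 253.1 to 14645, 14109 and 13942 (48.2-fold), and WT held 0, 10.5 and 7.01. CYTIP, a scaffold protein of lymphocytes, was at 68.5, 58.1 and 39.8 against 2271, 2256 and 2009. NKD2, an antagonist of Wnt signaling, was at 1.93, 3.87 and 0.95 against 373.8, 341.7 and 293.4. LY6K and BEST1 rose 39.3-fold and 21.6-fold. SH2D1B, an adaptor of natural killer cells, had 1.93, 0.97 and 0.95 counts against 112, 115.5 and 125.6 (83.8-fold). ALPG rose 53.1-fold, and since it is nearly identical to other alkaline phosphatase genes, the reads of which may have been removed as ambiguous, its level is uncertain.

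**Figure D2:**
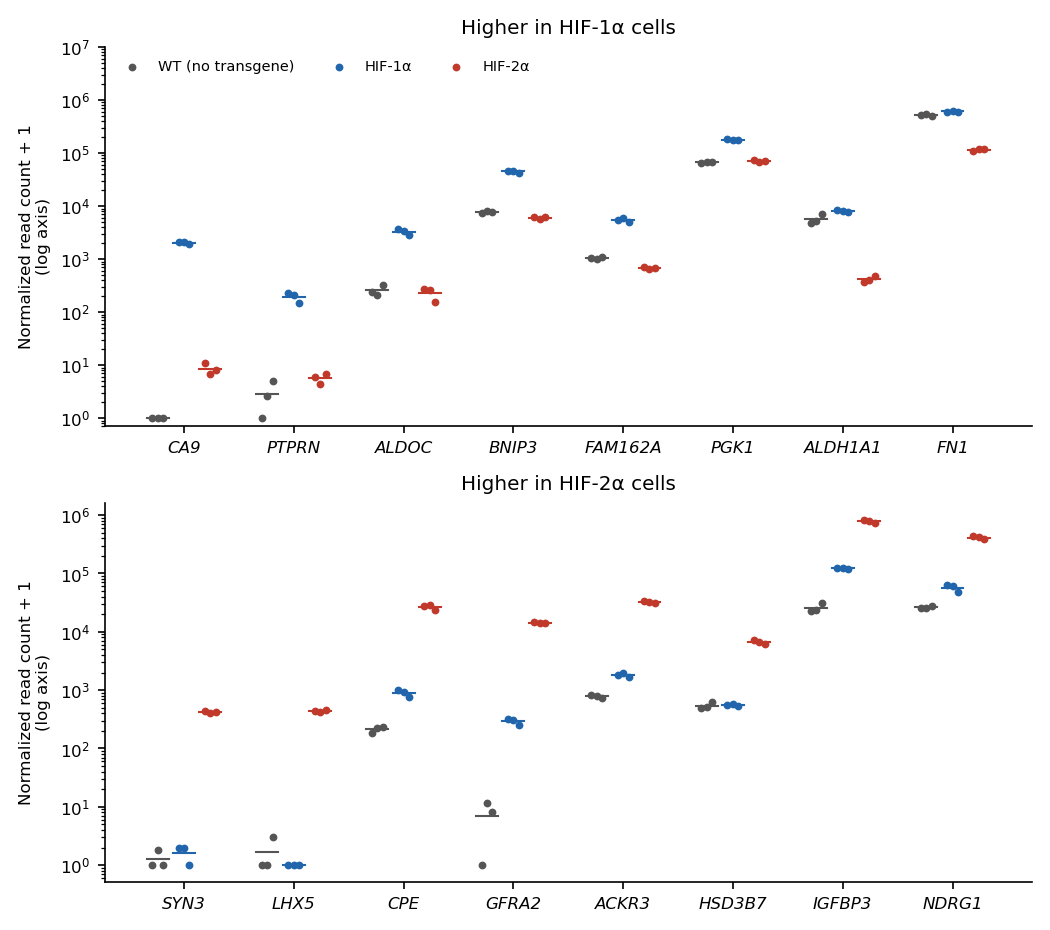
Normalized read count plus 1 in each library of batch 2 (3 each of WT, HIF-1α and HIF-2α), on a log axis, for 8 genes that fell (top) and 8 that rose (bottom). Points are libraries and short lines are group means. In every gene shown the HIF-1α and HIF-2α points are apart, and CA9 has no read in WT.

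Genes with very many reads differed as well. FN1, fibronectin, read 607501, 615429 and 601049 with HIF-1α and 107643, 117897 and 120887 with HIF-2α, a 5.27-fold fall (-2.40 ± 0.05). WT lay at 510264 to 546509, near the HIF-1α cells. IGFBP3, a binding protein of insulin-like growth factors, moved the other way and was at 122506, 124315 and 121333 against 816716, 804778 and 719132, and WT at 22616 to 31628, so both lines lay above WT in steps that did not overlap. NDRG1 rose 7.19-fold, GNAS by 1.26 ± 0.04, SLC2A1 by 1.15 ± 0.05 and SYNPO, an actin-associated protein of podocytes, by 1.68 ± 0.06 on the log2 scale. PGK1, PGAM1, AKR1B1, THBS1 and DPYSL3 completed the abundant genes that fell, by 2.04-fold to 2.52-fold.

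Of 19 tested genes of glucose uptake and glycolysis 2 rose, 4 fell and 13 were not called, with a median log2 difference of -0.24. At the adjusted p of 0.01 and any fold, 4 were higher and 12 lower, beside 7.9% and 9.74% of all genes. Those that rose were glucose transporters, SLC2A1 and SLC2A3 (1.17 ± 0.07). Those that fell were the enzymes ALDOC, PGK1, GPI and PGAM1. ALDOC read 3687, 3403 and 2789 with HIF-1α against 275.6, 265.5 and 153.8 with HIF-2α, and WT 213.5 to 321.7, so HIF-2α cells were at the WT level. PGK1, phosphoglycerate kinase, read 180900, 180103 and 174522 against 74342, 68302 and 69465 (-1.34 ± 0.05), and WT 64389 to 68192. GPI and PGAM1 fell by 1.29 ± 0.05 and 1.05 ± 0.05 on the log2 scale.

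Of the 8 tested PFKFB and PDK genes, kinases that steer fructose and pyruvate metabolism, 3 fell and none rose (median -0.84, range -1.80 to 0.72). PDK1, which inhibits pyruvate dehydrogenase in the mitochondrion, read 5427, 5480 and 4723 against 1463, 1718 and 1303, and WT 1455 to 1552. PFKFB4 fell 3.39-fold and PDK3 2.15-fold. In a list of mitochondrial hypoxia genes, 2 of 11 fell and none rose. BNIP3, a receptor of mitophagy, read 46154, 46840 and 42306 with HIF-1α and 6176, 5811 and 6183 with HIF-2α (7.45-fold, -2.90 ± 0.05). WT read 7544 to 7975, above the HIF-2α cells. FAM162A, a mitochondrial protein induced by hypoxia, read 5495, 5947 and 5072 against 707.9, 655.8 and 687.8 (-3.01 ± 0.08), again with WT (983.3 to 1079) above the HIF-2α cells. None of the 12 glycogen genes was called, nor any of 36 complex I subunits or 14 histone demethylases, where KDM3A had a difference of -0.73 ± 0.06. Over all genes 1.64% rose and 2.14% fell, so no call in lists of this size is near the general share. No call is not the same as no difference. At the adjusted p of 0.01 and any fold, 2 glycogen genes were higher and 5 lower, and 6 histone demethylases were lower. For complex I subunits these counts were 3 higher and 1 lower, and over all genes the shares were 7.9% and 9.74%.

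Oxygen sensors split in direction. EGLN3, a prolyl hydroxylase, rose from 12669, 12717 and 9583 to 62858, 61035 and 54650 (2.35 ± 0.08). EGLN1 fell from 2752, 2481 and 2183 to 1035, 1001 and 856.8 (-1.36 ± 0.08). With EPAS1 and HIF1A these were the 2 higher and 2 lower genes of 15 tested in that list. Carbonic anhydrases split likewise. CA12 rose from 21292, 21346 and 20598 to 91299, 91634 and 76987, and CA2 fell from 1405, 1377 and 1332 to 530.4, 548.4 and 563.4. CA1 was called higher at few reads, 5.79, 0 and 0 against 23.8, 20.8 and 20 (3.40 ± 0.99).

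Among 21 tested angiogenic ligands and receptors 5 rose and 2 fell, with a median of 0.65. Over all genes 1.64% rose and 2.14% fell, and these shares also belong beside the calls in each list that follows. VEGFA, the main endothelial growth factor, read 29096, 28479 and 25473 with HIF-1α and 72151, 77295 and 69140 with HIF-2α (1.40 ± 0.06). WT read 12479 to 15048, so both lines lay above it. PGF, placental growth factor, went from 262.3, 248.8 and 252.2 to 3375, 3061 and 2257 (11.4-fold). EDN1, endothelin, and ADM, adrenomedullin, both vasoactive peptides, rose by 2.23 ± 0.15 and 1.25 ± 0.06, and ANGPTL4 by 1.39 ± 0.12. NRP1, a co-receptor of VEGF and semaphorins, fell by 1.09 ± 0.06. PDGFD had 26, 27.1 and 52.1 counts against 13.9, 8.08 and 15.3, and its adjusted p of 0.00953 (edgeR) was just inside the threshold.

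Ligands of the EGF receptor family moved in opposite directions. TGFA rose from 27292, 27658 and 25545 to 86179, 89551 and 80467 (1.67 ± 0.06). EREG, epiregulin, fell from 10693, 10553 and 11752 to 1772, 1824 and 2640 (-2.41 ± 0.09), and AREG, amphiregulin, from 340.5, 512.1 and 557.4 to 62.5, 84.3 and 129.1. WT cells held more of both than either line, 19180 to 24559 for EREG and 836.8 to 1070 for AREG. BTC and NRG1 fell 2.96-fold and 2.09-fold. In all, 1 of 14 tested genes of this list rose and 4 fell (median -0.19), beside 1.64% and 2.14% of all genes.

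Among 21 tested cyclin D, MYC and CDK inhibitor genes, 4 rose and 1 fell (median 0.17), beside 1.64% and 2.14% of all genes. CCND1, cyclin D1, read 34963, 35704 and 35296 with HIF-1α, against 32677 to 34593 in WT, and 93798, 95115 and 89232 with HIF-2α (1.39 ± 0.05). MXD3 rose by 1.08 ± 0.07. CDKN1C, a CDK inhibitor, rose from 30.9, 37.8 and 29.4 to 77.3, 78.5 and 75.1, and MYCN from no read to 5.95, 15 and 18.8, at least 13.4-fold. MYCL fell by 1.36 ± 0.29. None of 26 proliferation genes was called, and the range of their log2 differences was -0.24 to 0.23.

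Genes of the extracellular matrix were mixed (over all genes, 1.64% rose and 2.14% fell). LOX and LOXL2, which cross-link collagen, rose by 1.06 ± 0.10 and 1.13 ± 0.06, and LOXL1 fell by 1.06 ± 0.08. Of 29 collagen chains COL23A1 (8.68, 0 and 0.95 against 105.1, 68.1 and 86.9) and COL12A1 rose, and COL9A2 and COL5A1 fell. Among 19 metalloproteases and TIMPs, TIMP3 rose and MMP13 (1342, 1238 and 1185 against 204.2, 148.9 and 199.5) and MMP7 fell. IGFBP5 rose 18.7-fold with IGFBP3, while CCN3 fell from 369.4, 406.6 and 312.8 to 45.6, 83.1 and 84.5. SERPINB2, an inhibitor of plasminogen activators, was at 0 with HIF-1α and at 11.9, 12.7 and 4.70 with HIF-2α. EPCAM, an epithelial adhesion protein, fell with FN1 in the list of epithelial and mesenchymal genes, where 2 of 17 fell and none rose.

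Neuronal gene lists held calls in both directions (over all genes, 1.64% rose and 2.14% fell). Of 21 genes of neuroendocrine granules 3 rose and 2 fell. CPE rose, as did SCG5, a chaperone of prohormone convertase (338.5, 360.1 and 416.2 against 838.7, 778.2 and 652.6). CHGA, chromogranin A, appeared at 8.92, 3.46 and 14.1 counts against none, at least 9.17-fold. PTPRN and PPFIA4, a liprin of synapses, fell, the latter from 3939, 3842 and 3305 to 475.9, 581.9 and 508.2. Of 45 axon guidance genes 3 rose and 5 fell (median 0.11). Those that rose were PLXNA2, a semaphorin receptor (1283, 1239 and 1379 against 7169, 7268 and 6679), SEMA6A and SEMA5B, the last of which varied between the HIF-1α libraries (1590, 1819 and 836.1). SEMA3A, SEMA3F and SEMA3E, secreted semaphorins, fell by 2.62 ± 0.15, 2.05 ± 0.10 and 1.74 ± 0.21. EFNA3, an ephrin, fell by 1.38 ± 0.27.

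In metabolism outside glycolysis, HSD3B7, an enzyme of bile acid synthesis, rose from 555.5, 587.6 and 528 to 7125, 6646 and 6182 (3.58 ± 0.08). HIF-1α cells were at the WT level for it (495.9 to 630.4). It was the single call among 13 tested sterol and bile acid enzymes, whose median was -0.50, and 7 of them were lower at the adjusted p of 0.01 without reaching 2-fold. SCD, the desaturase that makes monounsaturated fatty acids, fell from 63307, 61584 and 55618 to 14675, 14561 and 15984 (3.99-fold), and DGAT2, which makes triglycerides, fell 2.13-fold. These were the calls among 23 genes of lipid droplets and fatty acids. Of 20 amino acid transporters 2 rose and 3 fell, beside 1.64% and 2.14% of all genes. SLC7A2, for cationic amino acids, rose 14.0-fold and SLC6A6, for taurine, rose by 1.51 ± 0.07. SLC7A7, SLC1A1 and SLC7A8 fell, SLC7A8 with an adjusted p of 0.00914 (edgeR). ADORA2B, an adenosine receptor, and HMOX1, heme oxygenase, fell by 1.27 ± 0.13 and 1.19 ± 0.10.

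Chemokine genes and receptors gave 3 higher and 5 lower genes of 27, beside 1.64% and 2.14% of all genes. The receptor genes ACKR3 and CXCR4 rose. ACKR3 read 1852, 1928 and 1652 against 34051, 32764 and 31570 (18.1-fold) and CXCR4 4.82, 20.3 and 3.79 against 218.1, 274.8 and 124.4. The receptor gene CCR7, named after its values were seen, had 4.82, 0 and 2.84 counts against none and was not called (adjusted p = 0.132, edgeR). The ligands CCL2 (286.5, 334.9 and 403.8 against 80.3, 77.4 and 132.6), CCL5, CXCL5 and IL18 fell. TNFSF10, the death ligand TRAIL, rose by 1.39 ± 0.06. Of 34 interferon-stimulated genes IFI6 alone was called, at 1.33 ± 0.09. A single call in a list of this size is near the share over all genes.

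Of 21 genes of the unfolded protein response and amino acid stress, 2 rose, DDIT4 (1.01 ± 0.10) and PHGDH, which makes serine. PHGDH was low throughout, at 2.89, 5.81 and 5.69 with HIF-1α and 34.7, 25.4 and 27 with HIF-2α (2.57 ± 0.59). A list of 20 genes often used to report hypoxia did not move as a block. Of these 6 rose (CXCR4, NDRG1, EGLN3, ADM, LOX and DDIT4), 3 fell (PFKFB4, BHLHE41 and SPAG4) and 11 were not called, with a median of -0.01. Over all genes 1.64% rose and 2.14% fell. At the adjusted p of 0.01 and any fold, 8 of the list were higher, 8 lower and 4 neither. Over all genes the shares at that threshold were 7.9% higher and 9.74% lower. BHLHE41, a transcriptional repressor, read 5322, 4586 and 4971 with HIF-1α and 1989, 2000 and 2070 with HIF-2α. GPRC5C, a receptor that retinoic acid induces, also fell, from 707, 584.7 and 438.9 to 169.5, 117.8 and 103.3, and WT held 4.82 to 13.

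Some of these calls lay near the threshold, and 13 named genes lost theirs in at least 1 of the 6 fits that left out a library. SPAG4 did so without HIF-2α replicate 3 (-0.94), SCG5 without replicate 1 of either line (0.94 and 0.96), and LOX, AKR1B1 and DDIT4 without any of several, with the log2 difference of LOX down to 0.95, of DDIT4 down to 0.88 and of AKR1B1 to -0.93. CA1, CHGA, SERPINB2, CDKN1C, CCL5, PDGFD and SLC7A8, at low counts, lost theirs through the adjusted p. No named gene changed its sign.

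**Figure D3:**
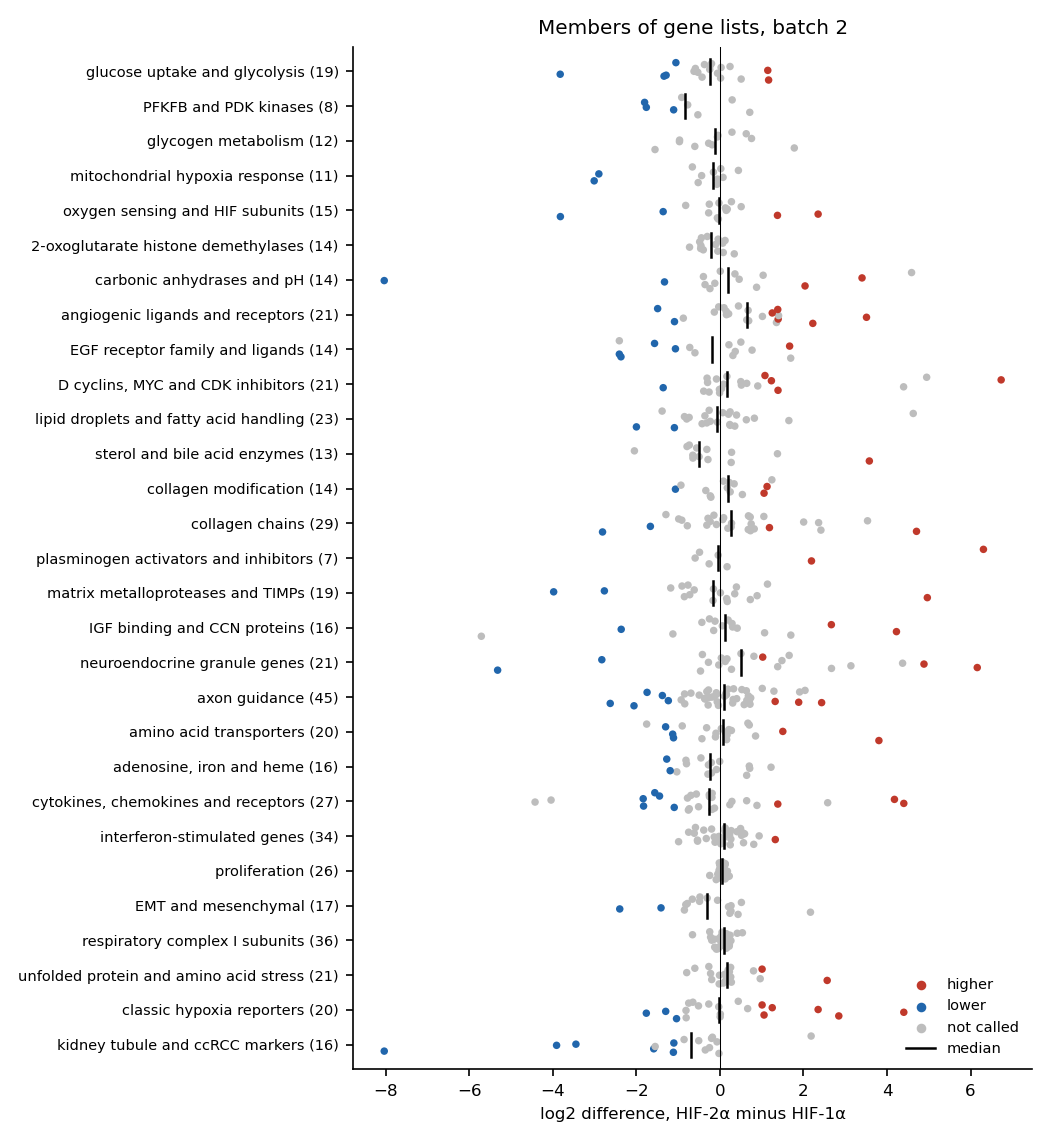
The log2 difference of HIF-2α minus HIF-1α in batch 2 (x axis) for each tested member of the gene lists (y axis, number tested in brackets). Red points rose, blue points fell, grey points were not called and the black line is the list's median. The proliferation and complex I lists lie close to 0.

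Lines were also compared for markers of cells that a kidney culture could hold. The summed count of 18 kidney tubule and ccRCC markers was 68520 to 69860 in WT, 84280 to 87360 with HIF-1α and 50570 to 56920 with HIF-2α, and 6 of 16 tested fell, among them VCAM1 and CDH6. VCAM1, an adhesion molecule, read 8286, 8340 and 7959 against 664.2, 800.1 and 797. UMOD and SLC22A6, which define distinct tubule segments, were at 0 in all 9 libraries. Endothelial markers summed to 67.4 to 85.7 in WT, 158.8 to 172.5 with HIF-1α and 87.8 to 131.9 with HIF-2α, where TIE1 was called lower (116.7, 105.5 and 110 against 41.6, 27.7 and 17.6). Leukocyte markers (186.8 to 239.5, 411.4 to 516.9 and 390.9 to 489.8) and fibroblast markers (999.5 to 1198, 1187 to 1504 and 1404 to 1513) held no called gene. Of their defining genes, PTPRC was at 0 to 10.4 and PDGFRA at 0 to 7.93 over the 9 libraries. The part of these markers in the differences above was not tested.

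A few genes were called on opposite sides of WT in the 2 lines. BARX2, a homeobox factor, read 190.7, 224.8 and 209.5 in WT, 100.3, 77.4 and 53.1 with HIF-1α and 615.7, 592.3 and 522.3 with HIF-2α. CXCR4 was called in the same way, though its WT libraries (11.6, 42.1 and 31.1) overlapped those with HIF-1α. CLDN2, a claudin that makes tight junctions leaky to cations, was the reverse, with 121.3, 132.6 and 210.5 in WT, 687.7, 820.9 and 772.6 with HIF-1α and 29.7, 50.8 and 35.2 with HIF-2α. USH1C and the non-coding AL161431.1 shared the order of CLDN2, the latter with 490.9, 532.4 and 435.1 against 12.9, 30 and 7.04. In all, 2 higher and 9 lower genes showed such a pattern.

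The study also mapped where the tagged proteins bind in these lines with Cut&Run and published regions with more binding of 1 isoform, 1031 HIF-1α responsive and 107 HIF-2α responsive regions. Only their positions were used here, to look at the expression of genes nearby. Of 99 tested genes with a start site within 50 kb of a HIF-2α responsive region, 23 rose (23.2%) and 2 fell (2.02%), with a median log2 difference of 0.79. Within 5 kb, 8 of 18 rose (44.4%), none fell and the median was 1.87. Near HIF-1α responsive regions the shares were nearer to those of all genes, with 22 higher (0.92%) and 75 lower (3.14%) of 2392 genes within 50 kb and 5 higher (0.879%) and 22 lower (3.87%) of 569 within 5 kb. For comparison, 1.64% of the 28598 genes with a position rose and 2.14% fell. A region can lie near several genes, so these genes are not independent.

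Genes near HIF-2α responsive regions that rose include EPO, the hormone of red cell formation, at 0.96, 5.81 and 0.95 counts with HIF-1α and 38.7, 38.1 and 48.1 with HIF-2α (3.96 ± 0.79). Others were F3 (tissue factor, 1.69), PTH1R (3.47), SLAMF7 (3.18), CPE, GFRA2, BARX2, CYTIP, SH2D1B and SYN3. Near HIF-1α responsive regions CA9, PTPRN, NKX2-5, SEMA3F, GPRC5C, L1CAM (-2.04), JAG1 (-2.08), DCDC2 (-2.34) and ELF3 (-2.14) fell. EPO, F3, PTH1R, SLAMF7, L1CAM, JAG1, DCDC2, ELF3 and ADAMTS15 fall outside the rule for named genes and were chosen after their values were seen.

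The central 200 bases of 4 regions of each kind are shown as examples of the DNA beside genes that differed. They were picked by hand and are not those of the largest differences, since CA9 and others near HIF-1α responsive regions fell further than DCDC2 or ELF3. Bases are the plus strand of hg38, and capitals mark ACGTG or GCGTG, the core of the HIF response element in its common forms, on either strand. The HIF-2α responsive regions near CPE (chr4:165360205-165360404, intergenic, centred 890 bases before the start site), EPO (chr7:100723709-100723908, just past the annotated end of the gene), SH2D1B (chr1:162416817-162417016, intergenic, 4778 bases from the start site) and SYN3 (chr22:33035406-33035605, in an intron) read
CPE: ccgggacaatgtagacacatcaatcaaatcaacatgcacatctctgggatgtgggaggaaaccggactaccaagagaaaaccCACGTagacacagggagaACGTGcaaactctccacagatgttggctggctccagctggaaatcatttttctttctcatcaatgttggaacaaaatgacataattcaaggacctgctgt
EPO: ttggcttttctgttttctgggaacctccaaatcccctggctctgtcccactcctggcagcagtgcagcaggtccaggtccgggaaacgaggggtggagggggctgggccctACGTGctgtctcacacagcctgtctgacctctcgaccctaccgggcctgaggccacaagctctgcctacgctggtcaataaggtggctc
SH2D1B: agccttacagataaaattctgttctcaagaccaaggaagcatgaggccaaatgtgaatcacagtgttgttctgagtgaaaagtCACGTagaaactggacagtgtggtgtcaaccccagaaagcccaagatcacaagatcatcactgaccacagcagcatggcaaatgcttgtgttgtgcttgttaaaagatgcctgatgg
SYN3: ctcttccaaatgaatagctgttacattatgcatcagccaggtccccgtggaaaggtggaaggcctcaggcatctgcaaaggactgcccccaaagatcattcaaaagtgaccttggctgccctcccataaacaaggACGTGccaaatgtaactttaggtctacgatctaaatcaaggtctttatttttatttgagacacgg
Each of them holds ACGTG at least once and none holds GCGTG.

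The HIF-1α responsive regions are those near ADAMTS15 (chr11:130478347-130478546, intergenic, 29801 bases from the start site), DCDC2 (chr6:24360085-24360284, intergenic, 2125 bases), ELF3 (chr1:202019126-202019325, intergenic, 11280 bases) and PTPRN (chr2:219294954-219295153, over a coding exon of PTPRN).
ADAMTS15: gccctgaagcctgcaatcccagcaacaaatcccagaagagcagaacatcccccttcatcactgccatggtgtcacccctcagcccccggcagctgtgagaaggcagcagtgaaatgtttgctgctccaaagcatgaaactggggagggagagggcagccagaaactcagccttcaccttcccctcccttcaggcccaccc
DCDC2: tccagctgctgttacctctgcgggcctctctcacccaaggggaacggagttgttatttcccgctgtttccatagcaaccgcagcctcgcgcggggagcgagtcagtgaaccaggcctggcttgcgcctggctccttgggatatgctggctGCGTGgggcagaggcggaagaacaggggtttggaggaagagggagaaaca
ELF3: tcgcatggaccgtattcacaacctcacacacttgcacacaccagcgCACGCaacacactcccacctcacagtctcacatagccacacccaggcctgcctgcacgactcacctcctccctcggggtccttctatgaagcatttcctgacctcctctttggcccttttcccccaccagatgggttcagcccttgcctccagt
PTPRN: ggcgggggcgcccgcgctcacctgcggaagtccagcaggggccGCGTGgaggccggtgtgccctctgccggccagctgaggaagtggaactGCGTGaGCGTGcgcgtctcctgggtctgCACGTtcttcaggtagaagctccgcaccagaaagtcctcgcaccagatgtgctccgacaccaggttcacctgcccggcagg
The PTPRN region holds 1 ACGTG and 3 GCGTG, the DCDC2 and ELF3 regions 1 GCGTG each, and the ADAMTS15 region neither.

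Over the central 300 bases, searched on both strands, 88.8% of the 107 HIF-2α responsive regions and 46.8% of the 1031 HIF-1α responsive regions held ACGTG, and 15.9% and 46.2% held GCGTG. Promoters were taken from 250 bases before to 50 after the annotated start. ACGTG was in 24.1% of 15792 promoters of tested protein-coding genes, in 19.4% of the 355 that rose and in 23.2% of the 495 that fell. GCGTG was in 45.1%, 34.6% and 38.0%. A match is a description of the sequence and not of binding.

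Domain-swapped proteins allowed the comparison to be set beside a second one in libraries that it did not use. In HIF-1α/2α the IDR of HIF-2α follows the folded N-terminal domains of HIF-1α, and HIF-2α/1α is the reverse, so HIF-1α/2α minus HIF-2α/1α compares the IDRs with the other parts exchanged. In that contrast 703 genes (2.45%) rose and 735 (2.56%) fell. Of the 471 genes higher with HIF-2α, 234 were called in the same direction in the chimeras (49.7% of the 471 and 33.3% of the 703), 7 in the opposite direction, and 412 had the same sign. Of the 614 lower genes, 292 were called in the same direction (47.6% of the 614 and 39.7% of the 735), 27 in the opposite direction, and 495 had the same sign. Among all tested genes 59.4% had the same sign. The median log2 difference in the chimeras was 1.13 for the higher and -1.15 for the lower genes, against 1.59 and -1.64 between the isoforms.

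**Figure D4:**
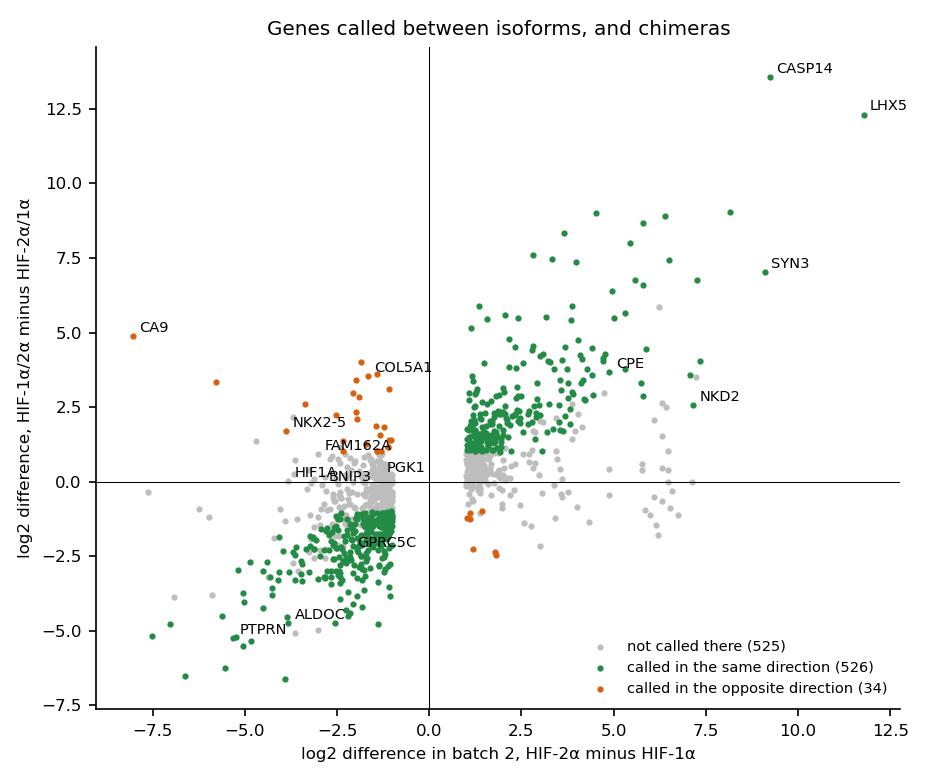
The genes called in batch 2, with the log2 difference of HIF-2α minus HIF-1α on the x axis and that of HIF-1α/2α minus HIF-2α/1α on the y axis. Green genes were called in the same direction in the chimeras, orange genes in the opposite direction and grey genes were not called there. CA9 lies at the far upper left, and BNIP3 and PGK1 lie close to the horizontal line.

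Named genes differed in how they fared in the chimeras. GFRA2 averaged 16138 normalized counts with HIF-1α/2α and 148.2 with HIF-2α/1α, beside 14232 with HIF-2α and 295 with HIF-1α. CPE, VCAM1, KCNJ16 and ALDOC also kept their direction, ALDOC with 102.7 against 2765 counts (-4.76 ± 0.16). LHX5 and CASP14 averaged 4146 and 5711 counts with HIF-1α/2α, above their means of 439.5 and 269.1 with HIF-2α. By contrast BNIP3 averaged 7601 with HIF-1α/2α and 8236 with HIF-2α/1α, both near WT (7766), and its difference of -0.12 ± 0.05 was not called (adjusted p = 0.0954, edgeR). PDK1 averaged 2963 and 2790, between WT (1497) and HIF-1α (5210), and PGK1 102862 and 90841, again between WT (66481) and HIF-1α (178508). Neither PGK1 (0.18 ± 0.04) nor PDK1 (0.09 ± 0.08) reached the fold threshold in the chimeras.

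Some genes turned round. CA9 averaged 135.6 counts with HIF-1α/2α and 4.6 with HIF-2α/1α, a difference of 4.89 ± 0.25 where the isoforms differed by -8.03. TIE1 (283.7 against 39.1), COL5A1 (1192 against 103.2) and NKX2-5 (148 against 46) were likewise higher with HIF-1α/2α, while SCG5 (207.5 against 488.6) was lower. FAM162A was at 1945 and 1020, a difference of 0.93 ± 0.08 that stayed under 2-fold. HIF1A reads did not separate the chimeras (9734 and 9625). Each carries a different part of the HIF1A coding sequence, and the reason for the like counts was not tested.

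The first batch held the same contrast, 3 libraries of each line, made with another RNA extraction, library kit and read length at another site. These differ together, so their parts cannot be told apart. There 219 genes (0.935%) rose and 342 (1.46%) fell of 23410 tested. These calls came from a fit without a block. Same-numbered libraries of that batch deviated together, most of all number 3, while numbers 1 and 2 were not clearly separated from each other. A fit blocked on that number called 269 genes higher and 528 lower. Of the 445 higher genes of batch 2 that were tested in batch 1, 428 had the same sign and 187 were called, which is 85.4% of the 219. Of the 614 lower genes 605 had the same sign and 266 were called, which is 77.8% of the 342. None was called in the opposite direction, and 67.3% of the 22915 genes tested in both batches had the same sign. The median log2 difference in batch 1 was 1.38 for the higher and -1.57 for the lower genes. The median standard error of genes with a mean count of at least 50 was 0.24 in batch 1 and 0.08 in batch 2.

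Normalized counts of batch 1 are on a scale of their own. CA9 read 4276, 4602 and 3872 with HIF-1α and 41.1, 5.91 and 18.1 with HIF-2α there, a difference of -7.64 ± 0.47. CPE read 750.9, 658.1 and 231.3 against 15870, 11260 and 11094, and SYN3 0, 4.17 and 0 against 663.4, 546.5 and 688.6. FN1 read 411309, 337891 and 197988 against 45815, 40212 and 38431. EPO read 14.2, 48.6 and 11.8 against 191.1, 137.4 and 166.8 (2.76 ± 0.64). In each of these genes the lines did not overlap in either batch. Not every gene had a difference of like size. EREG read 3603, 4157 and 6329 with HIF-1α and 1587, 2281 and 2096 with HIF-2α in batch 1, a difference of -1.24 ± 0.19 beside -2.41 in batch 2, and AREG differed by -1.03 ± 0.22 beside -2.37. The test of these differences between batches gave an adjusted p in edgeR of 0.439 for EREG and 0.898 for AREG, and of 8e-17 and 0.000268 with the blocks described below. MYCN, CA1, CHGA and SERPINB2 were too low to be tested in batch 1.

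**Figure D5:**
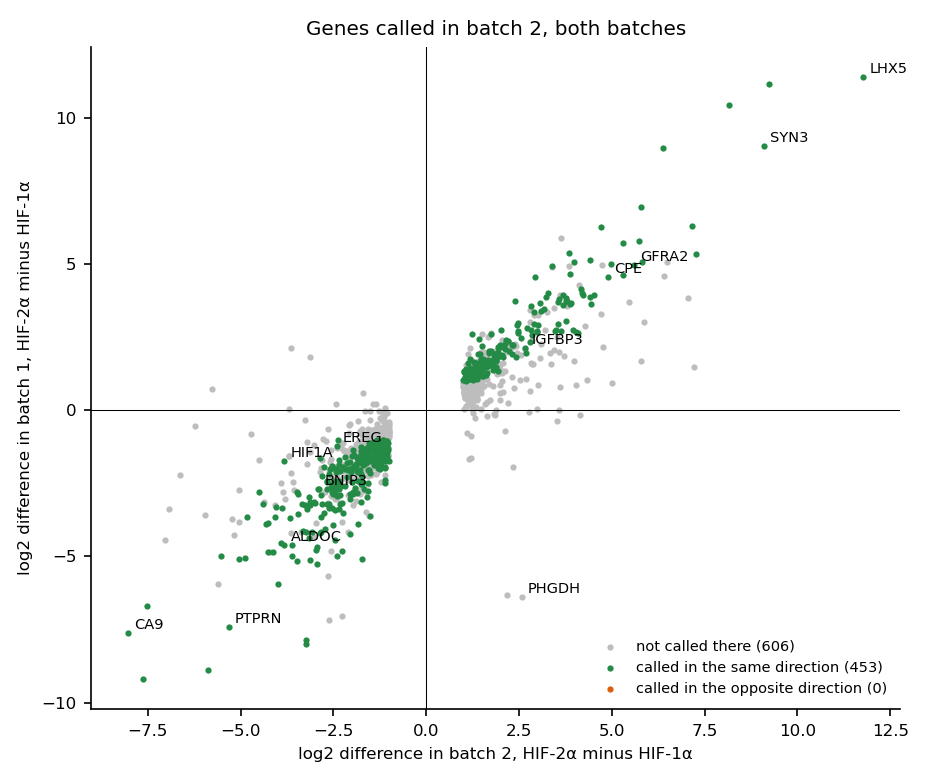
The genes called in batch 2 and tested in batch 1, with the log2 difference of HIF-2α minus HIF-1α in batch 2 on the x axis and in batch 1 on the y axis. Green genes were called in the same direction in batch 1 and grey genes were not called there. HIF1A lies at -3.82 in batch 2 and -1.74 in batch 1, and PHGDH is the labelled point that falls on opposite sides of 0.

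Whether the isoform difference itself changed between batches was tested on the 12 libraries of both, over 26777 genes. In edgeR no gene was called with a more positive difference in batch 2 and 1 gene, HIF1A, with a more negative one. At an unadjusted p under 0.05 there were 782 and 665 such genes, and DESeq2 called 3 and 2. Blocking on the replicate number within each batch gave 32 and 26. HIF1A differed by -3.82 in batch 2 and by -1.74 ± 0.23 in batch 1, where HIF-1α libraries held 2786, 3082 and 3245 counts and HIF-2α libraries 666.6, 846.4 and 1216.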

How the data were processed

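Poly-A RNA of 786-O cells was sequenced in the libraries described above. Per the labels and the study's methods, batch 2 used TRIzol extraction, NEBNext kits and paired-end reads, and the authors aligned reads to hg38 with STAR, kept uniquely mapped reads and counted them per GENCODE gene by HTSeq (union mode, strand ignored). The submitters' processing notes name STAR 2.7, SAMtools 1.9 and HTSeq 0.11.1. The authors deposited these raw read counts per gene and library, without normalization. Unique mapping and the lack of strand make counts of paralogs, overlapping and antisense genes uncertain.

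Genes entered the tests if their normalized counts averaged 0.5 or more. Counts were normalized by TMM (factors 0.963 to 1.03 in batch 2) and the 15 libraries of batch 2 were fitted in 1 quasi-likelihood model in edgeR 4.0.16 (R 4.3.3, limma 3.58.1), with Benjamini-Hochberg adjustment over all genes tested. A call needed an adjusted p of 0.01 or less and a difference of 2-fold or more. Batch 1 was fitted alone in the same way, and the test of a difference between batches used the 12 libraries of both lines. The scripts were tested on simulated data. A fold against a group without reads was set against a floor of 3 counts over its 3 libraries, and floors and exact 95% intervals cover counting error only. All libraries differed in their total counts. Batch 2 depths ranged from 76366799 to 109642159 counts.

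Named genes are the HIF subunits, the genes whose RNA-seq results the paper shows, the 12 protein-coding genes with the largest difference in each direction (called, mean count at least 50, no overlap of libraries), the 6 called genes with most reads in each direction, up to 4 called members of each gene list in each direction by size of the difference (in a list without a call the member with the largest difference), the genes that differed between batches, and those called on opposite sides of WT. A few genes that this rule names are not reported here. The members, gene lists and regions were chosen with earlier results of these data known. Region positions came from the study's supplement, sequences from hg38 and gene positions from GENCODE release 44, which held 60340 of the 60609 gene IDs.

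Whether same-numbered libraries deviate together was checked by the correlation of their deviations from the group means. It was 0.391, 0.212 and 0.581 for numbers 1, 2 and 3 in batch 1. HIF-1α number 2 correlated as much with HIF-2α number 1 (0.224), and number 3 gave -0.465 to -0.243 against the others. The fit that gave the batch 1 calls had no block, and a block on the number was run as an alternative. Alternatives were DESeq2 1.42.0, RLE normalization, no filter or a mean count of at least 10, the 2 lines alone, glmTreat at a fold of 1.5, a replicate block and each library left out.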

Additional observations from a re-analysis of the deposited data

Results flagged for a closer look

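The isoform difference of HIF1A differed between batches by -2.13 on the log2 scale (interaction test, edgeR adjusted p = 0.00109). The HIF-1α line held fewer HIF1A reads relative to the HIF-2α line in batch 1 than in batch 2. Transgene and endogenous reads are counted together, and the cause was not tested.

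PHGDH was 2.57 higher with HIF-2α in batch 2 on the log2 scale, where its 3 HIF-2α libraries lay above the HIF-1α libraries. In batch 1 the HIF-1α libraries held 10.4, 16.7 and 4.55 counts and the HIF-2α libraries none, at least 7.30-fold lower. The test of this difference between batches gave an adjusted p of 0.123 in edgeR, 0.00104 in DESeq2 and 0.000125 with a replicate block. All of these levels are low.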

How the results depend on the processing

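The counts of 471 higher and 614 lower genes stayed within 1.5 times under every alternative run in batch 2. DESeq2 gave 483 and 622, of which 464 and 603 were the same genes, and RLE normalization 476 and 605. Without a filter the counts were 476 and 662, and with a mean of at least 10 they were 441 and 586. A fit of the 2 lines alone gave 513 and 654. The glmTreat calls, made on the adjusted p without the 2-fold cut, were 403 and 508, of which 332 and 429 were the same genes. Leaving out each library in turn gave 396 to 454 higher and 534 to 608 lower genes. Replicate numbers of batch 2 did not pair the libraries (correlations 0.0151, 0.0277 and 0.0524), and with a replicate block 489 and 659 genes were called.

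In batch 1, DESeq2 gave 271 and 462 genes, and leaving out each library 163 to 203 and 242 to 316. With the replicate block 269 rose and 528 fell, including all 219 and 342 called without it. For the difference between batches, DESeq2 called 3 and 2 genes and the replicate block within batch 32 and 26, against 0 and 1. The cause was not tested.

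None of the 126 named genes changed sign. Calls were lost in SLC7A8 (adjusted p 0.0135) and CA1 (0.113) with DESeq2, in the same genes with a mean of at least 10, in DDIT4 without a filter (log2 difference 0.99) and in PDGFD in a fit of the 2 lines alone (0.0104). RLE normalization and the replicate block changed none of these calls. Depth limits genes with a few reads, where 1 library decided several calls.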
